A study of Mus musculus with 4 samples.

Results

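The TGF-β pathway was examined through 10 genes that were chosen by symbol: the ligands *Tgfb1*, *Tgfb2* and *Tgfb3*, the receptors *Tgfbr1*, *Tgfbr2* and *Tgfbr3*, and the SMAD genes *Smad2*, *Smad3*, *Smad4* and *Smad7*. All 10 were among the 48587 genes of the count table and among the 18916 genes that passed the filter on low counts. The libraries came from primary vascular smooth muscle cells (VSMCs) grown from the descending aorta of C57BL/6J mice aged 8 to 12 weeks, after the adventitia had been removed and the endothelium scraped off, and used between passages 5 and 7. Cells of both groups were transduced with a lentivirus that expresses a hairpin, and cells were collected 48 hours after the medium was changed. The shMettl14 group (libraries A and B) received a hairpin against *Mettl14*, which encodes a subunit of the methyltransferase that deposits N6-methyladenosine (m6A) on mRNA. The shCTR group (libraries A and B) received a control hairpin directed at a plant microRNA, from a vector that also carries GFP. Knockdown used 1 hairpin, and neither the labels nor the methods say whether a letter marks a shared culture or whether libraries came from separate animals. The p-values therefore measure the spread between these 4 libraries only, which may be technical. Same-letter libraries deviated together from their group means (Pearson's r 0.786 across genes). The main fit did not model the letters, so that spread includes the difference between them.

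TGF-β ligands are secreted in a latent form, bound to their own propeptide and to matrix proteins, and must be released before they can act. Active ligand joins the type II receptor TGFBR2 to the type I receptor TGFBR1, whose kinase phosphorylates SMAD2 and SMAD3, and these enter the nucleus with SMAD4 to regulate transcription. In VSMCs the pathway is known for raising contractile genes such as *Acta2* and matrix genes such as those for collagens and fibronectin, while SMAD7 is induced by the pathway and restrains it.

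Sequencing depth was 114343653 to 124815868 counts per library, and counting error on a count of the 10 genes was at most 2.37%. *Mettl14* (ENSMUSG00000028114, chr3:123368297-123386108 of GRCm38, minus strand) had 19.0 ± 1.34 CPM (counts scaled to a common library total with TMM factors) with shCTR and 4.48 ± 0.163 CPM with shMettl14 (SD, n = 2), so the hairpin's target was low in both libraries that carry its label. The VSMC markers summed to 6799 and 5772 CPM in shCTR A and B and to 4442 and 4811 CPM in shMettl14 A and B, and 6 of 8 reached 1 CPM in every library. Endothelial markers summed to 1919 and 4067 CPM in shCTR A and B and to 1811 and 2522 CPM in shMettl14 A and B. Of these, 8 of 8 reached 1 CPM in every library. *Emcn* had the highest mean (649, 2099, 484 and 1077 CPM in the same order), although *Cdh5* was higher in shMettl14 A, at 566 CPM. The libraries thus held endothelial transcripts beside those of smooth muscle. The sum was higher in the B libraries, where *Emcn* was the most abundant. With either hairpin every endothelial marker but *Tie1* was higher in B than in A, *Vwf* only slightly (17.5, 18.9, 16.4 and 18.5 CPM). *Tie1* was lower in B (171, 136, 158 and 134 CPM). Leukocyte markers, led on average by *Lyz2*, summed to at most 14.8 CPM, and fibroblast markers, led by *Ly6a*, to 321 to 401 CPM. Striated muscle markers summed to 14.3 and 1.86 CPM in shCTR A and B and to 0.83 and 1.01 CPM in shMettl14 A and B. Of these 6 genes, 0 reached 1 CPM in every library. The 5 that were tested had negative log2 fold changes. *Myh4* and *Ckm* had an unadjusted p under 0.05 in edgeR. Both passed the filter on low counts only through their shCTR libraries, so no result is drawn from these calls. *Ckm* had 156 and 13 counts in shCTR A and B and 0 and 4 counts in shMettl14 A and B. *Myh4*, the highest on average, had 5.50 and 0.28 CPM in shCTR A and B and 0 counts in both shMettl14 libraries. No marker was at 0 in all 4 libraries.

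The sequence that the METTL3–METTL14 enzyme methylates most often contains GGAC, so the word GGACT was located on the sense strand of the principal coding transcript of each gene (GENCODE annotation on GRCm38). Every one of the 10 transcripts held the word, as did 86.9% of 21901 coding genes. *Tgfb1* held 5 copies, or 2.30 per kilobase, against a median of 1.01 over all coding genes. Of these copies 3 lay in the 5′ UTR and 2 in the coding part, and the nearest to the stop codon lay at −868, counted in bases from its end. The other 9 genes had 0.39 (*Smad3*) to 1.18 copies per kilobase. A copy within 200 bases of the stop codon, where m6A is known to be dense, was found in *Tgfb3*, *Tgfbr2*, *Smad2* and *Smad4*, which is 4 of 10 genes, against 36.1% of all coding genes. The copy nearest to the stop codon is shown for 6 genes, as examples of the word that the knocked-down enzyme is known to favour, and the windows of *Tgfb3*, *Smad2*, *Smad4* and *Smad7* are not shown. Each has 10 bases on each side in DNA letters, 5′ to 3′ along the transcript and GGACT in capitals. A match is not a mapped m6A site, and methylation of these transcripts was not analysed here. The windows lie at chr7:25688161-25688185 (plus strand, coding, *Tgfb1*), chr1:186624761-186624785 (minus, 3′ UTR, *Tgfb2*), chr4:47411148-47411172 (plus, 3′ UTR, *Tgfbr1*), chr9:116090263-116090287 (minus, 3′ UTR, *Tgfbr2*), chr5:107107633-107107657 (minus, 3′ UTR, *Tgfbr3*) and chr9:63648765-63648789 (minus, 3′ UTR, *Smad3*).
Tgfb1: agcccgaagcGGACTactatgctaa
Tgfb2: agttgttataGGACTaagcaagtct
Tgfbr1: cattctcagaGGACTctgaaccact
Tgfbr2: ggaaaaccaaGGACTtgctcccttc
Tgfbr3: acattgccaaGGACTttataaataa
Smad3: gatggtctgtGGACTgctgcttcag

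All 3 ligands were lower in both shMettl14 libraries than in either shCTR library, as were 13.3% of all genes tested (with library totals *Tgfb3* overlapped), and *Tgfb1*, the isoform most studied in blood vessels, had the lowest log2 fold change. *Tgfb1* (ENSMUSG00000002603, chr7:25687002-25705077 of GRCm38, plus strand) had 7360 and 6577 counts in shCTR A and B and 4870 and 5149 counts in shMettl14 A and B. After normalization these were 64.8, 60.9, 41.0 and 39.6 CPM. The groups did not overlap, and the libraries within each group lay close together. The mean was 62.8 ± 2.76 CPM with shCTR and 40.3 ± 1.01 CPM with shMettl14 (SD, n = 2), which is 64.1% of the shCTR level. The log2 fold change was −0.64 (standard error, SE, 0.19, 95% interval −1.12 to −0.16), with ratios of −0.66 in letter A and −0.62 in letter B. edgeR's quasi-likelihood test gave an unadjusted p of 0.018 and, with Benjamini-Hochberg adjustment over all genes, an adjusted p of 1.0. A gene of these 10 thus came under 0.05 before adjustment only here, and 1.67% of all genes tested did so. Without shMettl14 A the unadjusted p from edgeR was 0.14 and without shMettl14 B it was 0.17, while the log2 fold change stayed between −0.69 and −0.59 when any library was left out. The summed VSMC markers were also lower in both shMettl14 libraries, and their part in the *Tgfb1* difference was not tested. In bulk RNA, fewer cells of a type and less RNA per cell cannot be told apart.

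*Tgfb2* (ENSMUSG00000039239, chr1:186622792-186705989, minus strand) had 265 and 297 CPM in shCTR A and B and 247 and 209 CPM in shMettl14 A and B. Both shMettl14 libraries were below both shCTR libraries, with the lowest value in shMettl14 B. Its log2 fold change was −0.30 (SE 0.20, 95% interval −0.82 to 0.22, edgeR's unadjusted p = 0.20), with −0.10 within A and −0.50 within B. With library totals in place of the TMM factors these ratios were −0.02 and −0.36. *Tgfb3* (ENSMUSG00000021253, chr12:86056745-86079041, minus strand) had 151 and 161 CPM in shCTR A and B and 124 and 145 CPM in shMettl14 A and B. Here too the groups did not overlap, but shMettl14 B came close to shCTR A. The log2 fold change of *Tgfb3* was −0.21 (SE 0.20, 95% interval −0.72 to 0.30, edgeR's unadjusted p = 0.34), with −0.27 within A and −0.15 within B. When library totals replaced the TMM factors, the *Tgfb3* ratio within B was −0.01. Genes on the other strand share 12.4% of the exon bases of *Tgfb3* and 2.14% of those of *Tgfb2*, and whether the counting used strand is not given in the sources used here.

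The ligand promoters differ in sequence, and those of *Tgfb1* and *Tgfb2* are shown because these ligands had the lowest log2 fold changes of the 10 genes. Each is the 250 bases before the gene's start, taken from RefSeq on GRCm38.p6, 5′ to 3′ on the gene's strand, at chr7:25686752-25687001 (plus strand, *Tgfb1*) and chr1:186705990-186706239 (minus strand, *Tgfb2*). Of the 10 genes, promoter windows were examined only for *Tgfb1*, *Tgfb2*, *Tgfbr1*, *Tgfbr2* and *Smad3*. Capitals mark the words CAGAC (a SMAD-binding word), TATAA (the core of the TATA box) and CCAAT, each searched on both strands, and none of them overlap here.
Tgfb1: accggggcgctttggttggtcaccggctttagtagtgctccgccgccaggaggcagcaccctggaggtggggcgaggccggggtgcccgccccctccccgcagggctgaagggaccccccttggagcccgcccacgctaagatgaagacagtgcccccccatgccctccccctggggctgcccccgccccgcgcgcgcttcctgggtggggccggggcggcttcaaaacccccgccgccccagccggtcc
Tgfb2: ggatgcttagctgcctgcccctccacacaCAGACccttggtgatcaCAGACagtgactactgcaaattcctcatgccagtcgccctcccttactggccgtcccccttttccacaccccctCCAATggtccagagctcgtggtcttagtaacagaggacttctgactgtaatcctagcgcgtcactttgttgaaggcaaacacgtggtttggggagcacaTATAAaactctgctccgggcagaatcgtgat
The *Tgfb1* window, with 75.2% G and C, held none of the 3 words. The *Tgfb2* window, with 53.6% G and C, held CAGAC 2 times, TATAA 1 time and CCAAT 1 time. Of 32851 promoters of the same length, 42.2% held CAGAC, 22.8% TATAA and 33.8% CCAAT, so these words are common. The *Tgfbr2* window held CAGAC 1 time and CCAAT 2 times, that of *Smad3* none of the words, and of the windows at 2 starts of *Tgfbr1* the upstream one held CCAAT 2 times and the other CAGAC 1 time. A match is a description and not a bound site.

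**Figure D1:**
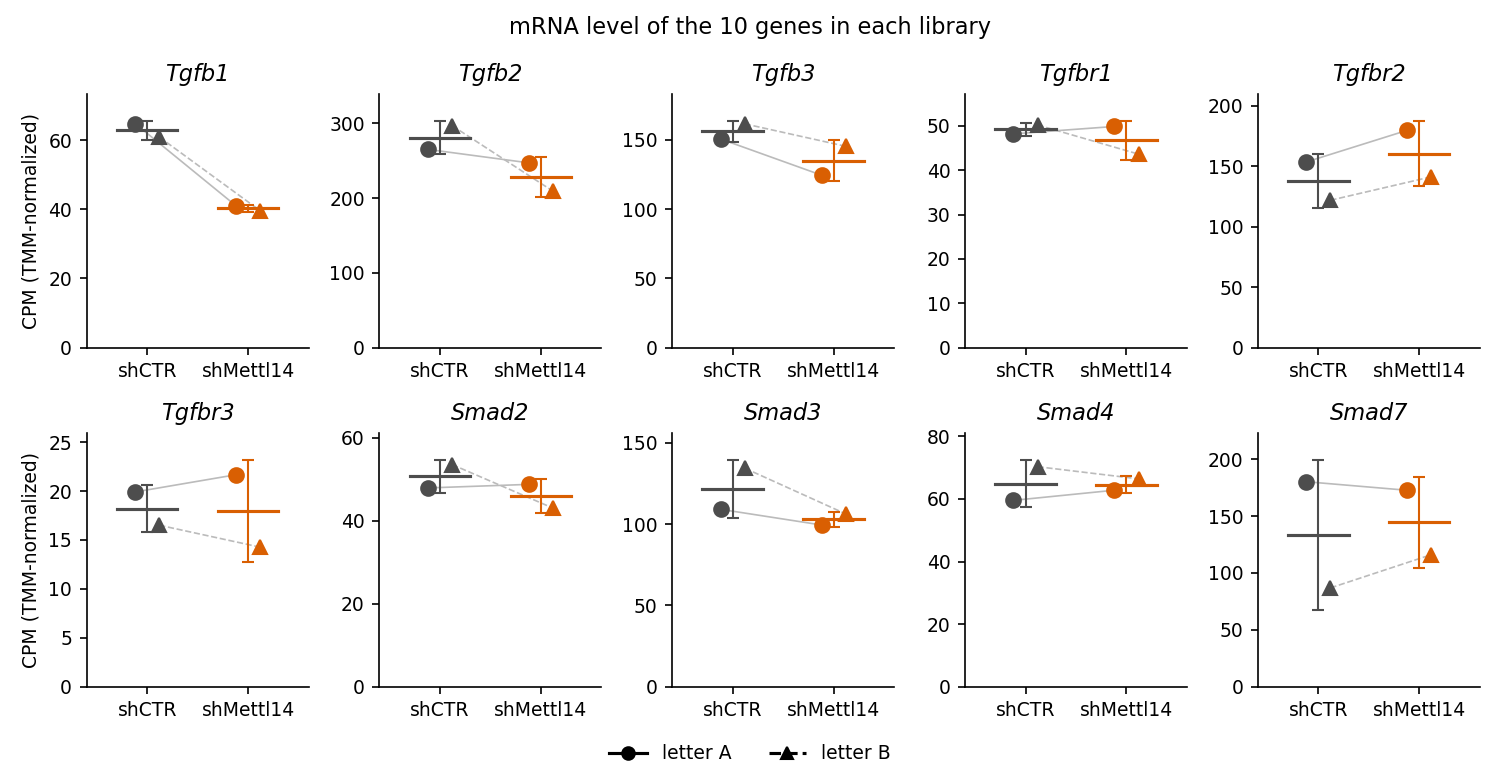
Level of the 10 genes in each library, in TMM-normalized CPM on an axis that starts at 0 in every panel. Circles are letter A and triangles letter B, horizontal bars are group means with error bars of 1 SD (n = 2), and grey lines join libraries of the same letter. *Tgfb1* lay at 60.9 and 64.8 CPM with shCTR and at 39.6 and 41.0 CPM with shMettl14, whereas *Smad7* differed more between the letters than between the hairpins.

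Receptor mRNA did not separate the groups. *Tgfbr1* (ENSMUSG00000007613, chr4:47353222-47414931, plus strand), which encodes the type I receptor kinase, had 48.2 and 50.2 CPM in shCTR A and B and 49.9 and 43.6 CPM in shMettl14 A and B. Only shMettl14 B stood below the other libraries. Its log2 fold change was −0.07 (SE 0.19, 95% interval −0.57 to 0.43, edgeR's unadjusted p = 0.72), with 0.05 within A and −0.20 within B. *Tgfbr2* (ENSMUSG00000032440, chr9:116084293-116175360, minus strand), which encodes the type II receptor that binds ligand first, had 153 and 122 CPM in shCTR A and B and 180 and 141 CPM in shMettl14 A and B. It was the only one of the 10 genes that was higher with shMettl14 within both letters, by 0.23 in A and 0.21 in B on the log2 scale, although *Smad4* and *Smad7* were so too when library totals replaced the TMM factors. Its shMettl14 B library lay below shCTR A, so the groups overlapped. Its log2 fold change was 0.22 (SE 0.24, 95% interval −0.39 to 0.83, edgeR's unadjusted p = 0.39). *Tgfbr3* (ENSMUSG00000029287, chr5:107106570-107289629, minus strand), which encodes betaglycan, a coreceptor that presents TGF-β2 to the kinase receptors, had 19.9 and 16.5 CPM in shCTR A and B and 21.7 and 14.3 CPM in shMettl14 A and B. The shMettl14 libraries were the highest and the lowest of the 4. For *Tgfbr3* the log2 fold change was −0.02 (SE 0.30, 95% interval −0.78 to 0.74, edgeR's unadjusted p = 0.95), and 4.54% of its exon bases belong also to another gene on its strand. The interval of *Tgfbr3* reached below the −0.64 fitted for *Tgfb1*, and those of *Tgfbr1* and *Tgfbr2* did not.

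Of the receptor-regulated SMADs, *Smad3* (ENSMUSG00000032402, chr9:63646767-63757994, minus strand), which carries much of the transcriptional response, had 109 and 134 CPM in shCTR A and B and 99.5 and 106 CPM in shMettl14 A and B. Both shMettl14 libraries were below both shCTR libraries, but shMettl14 B came close to shCTR A. With library totals in place of the TMM factors the groups of *Smad3* overlapped. Its log2 fold change was −0.24 (SE 0.21, 95% interval −0.77 to 0.29, edgeR's unadjusted p = 0.29), with −0.13 within A and −0.34 within B. *Smad2* (ENSMUSG00000024563, chr18:76241580-76310963, plus strand), the other substrate of the type I receptor, had 47.9 and 53.5 CPM in shCTR A and B and 48.7 and 43.0 CPM in shMettl14 A and B. The groups overlapped, and the ratio was 0.03 within A and −0.31 within B on the log2 scale, with a log2 fold change of −0.14 (SE 0.20, 95% interval −0.66 to 0.37, edgeR's unadjusted p = 0.50). *Smad4* (ENSMUSG00000024515, chr18:73639009-73703780, minus strand), the common partner, had 59.6 and 70.3 CPM in shCTR A and B and 62.8 and 66.4 CPM in shMettl14 A and B. Both shMettl14 libraries lay between the shCTR libraries. The *Smad4* log2 fold change was −0.01 (SE 0.20, 95% interval −0.52 to 0.50, edgeR's unadjusted p = 0.97) and turned to 0.01 with upper-quartile scaling.

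*Smad7* (ENSMUSG00000025880, chr18:75367529-75395935, plus strand), the inhibitory SMAD, had the highest standard error of the 10 genes. With shMettl14 the libraries of *Tgfbr3* differed slightly more between the letters, by −0.60 (B minus A, log2 scale). *Smad7* had 20468 and 9379 counts in shCTR A and B and 20506 and 15099 counts in shMettl14 A and B, or 180, 86.8, 173 and 116 CPM. The A libraries were high and the B libraries low with either hairpin. Between the letters the log2 difference, B minus A, was −1.05 with shCTR and −0.57 with shMettl14, whereas the median absolute difference over all genes was 0.51 and 0.34. Of all genes tested, 22.8% differed as much between the shCTR libraries. Its log2 fold change was 0.11 (SE 0.42, 95% interval −0.96 to 1.19, edgeR's unadjusted p = 0.80), with −0.06 within A and 0.42 within B, and it was −0.32 without shCTR B. *Smad6*, the other inhibitory SMAD gene, had 173 and 68.2 CPM in shCTR A and B and 166 and 87.8 CPM in shMettl14 A and B, with the same split by letter. The name of *Smad6* was chosen after its values were seen.

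**Figure D2:**
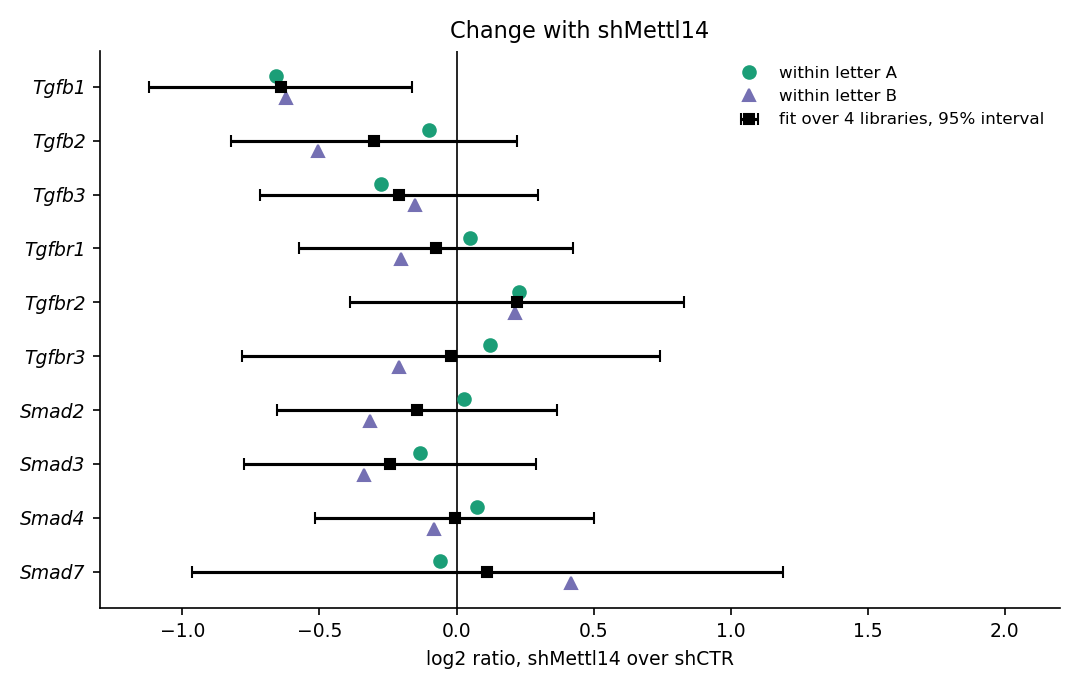
Log2 ratio of shMettl14 over shCTR for the 10 genes. Squares with bars are the edgeR fit over 4 libraries with its 95% interval, circles are the ratio within letter A and triangles that within letter B. The interval of *Tgfb1* lies below 0, at −1.12 to −0.16, and the other 9 intervals include 0.

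Over the 10 genes, 8 log2 fold changes were negative and 2 positive (7 and 3 with upper-quartile scaling, where *Smad4* turned), and the median was −0.11 (−0.02 within A and −0.21 within B), against 0.01 over all genes tested. It was −0.20 without shMettl14 A, −0.17 without shCTR A and −0.05 without shMettl14 B. With edgeR's quasi-likelihood test and Benjamini-Hochberg adjustment 0 of the 10 genes had an adjusted p under 0.05, and the share was 0% of all genes tested. By DESeq2's Wald test it was also 0 of the 10. In the edgeR fit *Mettl14*, the hairpin's own target, did not pass after adjustment either. The count of 0 there thus does not show that the 10 genes were unchanged. An unadjusted p under 0.05 was given to 1 of the 10 by edgeR (1.67% of all genes), by DESeq2 (1.52%) and by an edgeR fit with the letters as a replicate block (10.3%). Both shMettl14 libraries were below both shCTR libraries in 4 of 10 genes (*Tgfb1*, *Tgfb2*, *Tgfb3* and *Smad3*), against 13.3% of all genes tested, and above them in 0 of 10, against 14.7%. With library totals in place of TMM factors the groups of *Tgfb3* and *Smad3* overlapped, which left 2 of 10 genes below, against 8.22% of all genes, and 0 of 10 above, against 21.5%. The same 4 genes were lower within both letters (27.6% of all genes), 1 was higher within both (30% of all genes) and 5 went opposite ways (42.4% of all genes). The standard errors of the 10 genes had a median of 0.20, against 0.38 over all genes. Permuting 2 libraries against 2 exactly allows no two-sided p under 0.333, and such a test was not used.

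Levels were compared between genes per kilobase of annotated exon, averaged over the 4 libraries. *Tgfb2* was the most abundant at 44.0 ± 6.31 CPM per kilobase (SD over the 4 libraries), followed by *Tgfb3* at 43.0 ± 4.59, *Smad7* at 30.7 ± 9.96, *Smad3* at 20.3 ± 2.75, *Tgfbr2* at 18.2 ± 2.95 and *Smad4* at 17.5 ± 1.25. In this stretch the ranges of each gene and the next overlapped, so that the order is not settled by these libraries. Below them came *Tgfb1* at 10.2 ± 2.60, *Tgfbr1* at 7.35 ± 0.463, *Smad2* at 5.50 ± 0.489 and *Tgfbr3* at 2.76 ± 0.509 CPM per kilobase, and from *Smad4* downwards each gene exceeded the next in all 4 libraries without overlap. This place of *Tgfb1* rests on the length used. Per kilobase of the principal coding transcript *Tgfb1* had 29.8 and 28.0 CPM in shCTR A and B and 18.9 and 18.2 in shMettl14 A and B, against 17.6, 20.8, 18.6 and 19.6 for *Smad4*, so that the ranges overlapped, and *Tgfbr2* stood at 42.9 ± 6.96. By the level per kilobase of all exon bases, *Tgfb2* lay at the 94.6th percentile of the genes tested and *Tgfbr3* at the 52.8th.

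Within families, *Tgfb1* made up 12.5% and 10.9% of ligand mRNA per kilobase in shCTR A and B and 9.29% and 9.03% in shMettl14 A and B. Its share was lower in both shMettl14 libraries. Dividing by the principal coding transcript instead of all exon bases gave *Tgfb1* 23.6%, 20.9%, 18.1% and 17.8% in the same order, again without overlap between the groups. Ligand mRNA summed to 103 and 111 CPM per kilobase in shCTR A and B and to 87.6 and 86.9 in shMettl14 A and B, with no overlap. The remaining ligand mRNA was shared almost evenly by *Tgfb2* (41.6% to 48.7%) and *Tgfb3* (42.0% to 49.4%), so that most ligand transcripts in these cultures were not *Tgfb1*. *Tgfbr2* held most of the receptor mRNA, at 64.3% and 59.3% in shCTR A and B and 66.7% and 66.1% in shMettl14 A and B. Receptor mRNA summed to 29.2 and 25.1 CPM per kilobase in shCTR A and B and to 32.9 and 26.1 in shMettl14 A and B, with overlap. The SMAD share that varied most was that of *Smad7*, at 49.2% and 28.0% in shCTR A and B and 48.6% and 38.0% in shMettl14 A and B. This share was lower in B than in A with either hairpin. Between the hairpins it was similar within A and higher with shMettl14 within B.

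**Figure D3:**
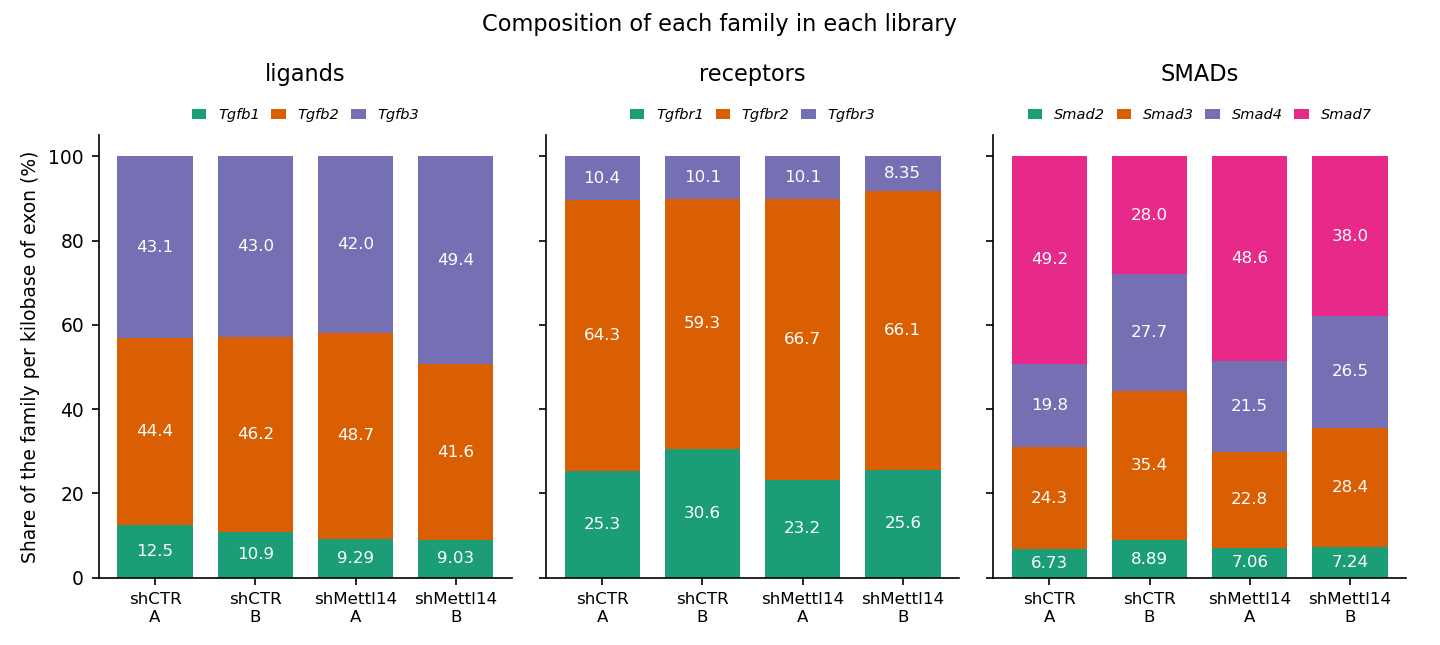
Share of each gene in the mRNA of its family (ligands, receptors, SMADs) in each library, in percent of the summed CPM per kilobase of exon. *Tgfb1* is the smallest ligand share in every library and is smaller with shMettl14 (9.03% and 9.29%) than with shCTR (10.9% and 12.5%).

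The rest of the pathway was described by 3 lists. The first held 18 genes for latent ligand storage and activation, all of them tested: 12 were lower and 6 higher with shMettl14, the median log2 fold change was −0.12, and 0 had an unadjusted p under 0.05 in edgeR, against 1.67% of all genes. Without shCTR B that median was 0.02 and without shMettl14 B 0.01. *Thbs1*, which encodes thrombospondin 1, an activator of latent TGF-β, had 10914 and 14284 CPM in shCTR A and B and 11860 and 11382 CPM in shMettl14 A and B, within the shCTR range. *Itgb1*, the integrin β1 gene, had 2548, 3282, 2282 and 2821 CPM in the same order, also with overlap. *Fbn1*, which encodes the fibrillin of microfibrils that hold latent complexes, had 725 and 872 CPM in shCTR A and B and 939 and 982 CPM in shMettl14 A and B. Both shMettl14 libraries were above both shCTR libraries, with a log2 fold change of 0.27 (SE 0.20, edgeR's unadjusted p = 0.24), and genes on the other strand share 20.1% of its exon bases. For *Fbn1* the log2 fold change was 0.14 without shCTR A and 0.40 without shCTR B. *Itgb8*, whose product pairs with integrin αv to activate latent TGF-β, was the highest of this list in log2 fold change. It had 2.90 and 5.93 CPM in shCTR A and B and 8.10 and 9.86 CPM in shMettl14 A and B, a log2 fold change of 1.03 (SE 0.44, edgeR's unadjusted p = 0.066), with 1.48 within A and 0.73 within B. Its log2 fold change was 0.60 without shCTR A and 1.63 without shCTR B (edgeR's unadjusted p = 0.18 and 0.0079). *Itgb8* was named after its values had been seen.

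The second list held 20 receptor and SMAD modulators, all tested: 9 were lower and 11 higher, and the median log2 fold change was 0.04. Without shCTR A or without shMettl14 A that median was −0.07. In edgeR 0 of the 20 had an unadjusted p under 0.05, against 1.67% of all genes. Both shMettl14 libraries were below both shCTR libraries for 5 of these genes, against 13.3% of all genes, and above them for 2, against 14.7%. *Pmepa1*, a target of the pathway whose product sequesters receptor-regulated SMADs, had 316 and 266 CPM in shCTR A and B and 220 and 165 CPM in shMettl14 A and B. *Fkbp1a*, which encodes FKBP12, a binder of the resting type I receptor, had 667 and 600 CPM in shCTR A and B and 390 and 485 CPM in shMettl14 A and B. In both genes the groups did not overlap, with log2 fold changes of −0.60 (SE 0.24, edgeR's unadjusted p = 0.054) and −0.53 (SE 0.21, edgeR's unadjusted p = 0.053). *Tgif1*, which encodes a SMAD corepressor, had 76.5, 67.5, 57.7 and 54.7 CPM in the same order, a log2 fold change of −0.36 (SE 0.19). *Eng*, the gene of the endothelial coreceptor endoglin, had 284 and 537 CPM in shCTR A and B and 247 and 337 CPM in shMettl14 A and B. It was high in shCTR B, as the summed endothelial markers were, and their part in its values was not tested.

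The third list held 26 target genes of the pathway, and 16 were lower and 10 higher. Their median on the log2 scale was −0.11 (−0.18 within A and −0.01 within B). That median was −0.39 without shCTR B, −0.25 without shMettl14 A and −0.025 without shCTR A. By edgeR's quasi-likelihood test 3 had an unadjusted p under 0.05 and were lower, against 1.01% of all genes, 1 was higher, against 0.656%, and 0 passed after adjustment. *Ctgf*, which encodes connective tissue growth factor (CCN2), had 3428 and 3432 CPM in shCTR A and B and 2307 and 2104 CPM in shMettl14 A and B. The shCTR libraries were nearly equal and the shMettl14 libraries well below them, with a log2 fold change of −0.64 (SE 0.18, edgeR's unadjusted p = 0.017), and genes on the other strand share 23.2% of its exon bases. *Tgfb1i1*, which encodes Hic-5, a focal adhesion protein induced by TGF-β1, had 205 and 206 CPM in shCTR A and B and 147 and 126 CPM in shMettl14 A and B, a log2 fold change of −0.59 (SE 0.20, edgeR's unadjusted p = 0.029). *Acta2*, the smooth muscle α-actin gene, had 3547 and 2799 CPM in shCTR A and B and 2171 and 2073 CPM in shMettl14 A and B, a log2 fold change of −0.58 (SE 0.21, edgeR's unadjusted p = 0.038). With DESeq2's Wald test *Acta2* missed the threshold (unadjusted p = 0.054), as it did in edgeR without shCTR A (log2 fold change −0.39, unadjusted p = 0.16). *Tgfb1i1* missed it in edgeR without shCTR A and without shCTR B (unadjusted p = 0.054 in both). *Acta2* is also 1 of the 8 VSMC markers, all of which had negative log2 fold changes, with a median of −0.41 (−0.53 within A and −0.16 within B), and 6 of which were lower within both letters, against 27.6% of all genes. *Col3a1*, the type III collagen gene, went the other way, at 620 and 480 CPM in shCTR A and B and 822 and 955 CPM in shMettl14 A and B. Its log2 fold change was 0.69 (SE 0.22, edgeR's unadjusted p = 0.028), with 0.41 within A and 0.99 within B. Without shCTR B its log2 fold change was 0.51 (edgeR's unadjusted p = 0.10). The calls of these 4 targets rest on both shMettl14 libraries, and a group with 1 of them left out has no spread of its own. Without shMettl14 A and without shMettl14 B the log2 fold changes were −0.70 and −0.57 for *Ctgf* and −0.71 and −0.48 for *Tgfb1i1*. They were −0.61 and −0.54 for *Acta2* and 0.80 and 0.58 for *Col3a1*.

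*Fn1* and *Eln*, the targets with the highest means over the 4 libraries, followed the letters. *Fn1*, the fibronectin gene, had 27729 and 68039 CPM in shCTR A and B and 32175 and 46312 CPM in shMettl14 A and B, and *Eln*, the elastin gene, had 5423 and 954 CPM in shCTR A and B and 5237 and 1219 CPM in shMettl14 A and B. *Fn1* was higher and *Eln* lower in the B libraries with either hairpin. There *Eln* lay below *Ctgf*, which had 3432 CPM in shCTR B and 2104 CPM in shMettl14 B. The unadjusted p-values of *Fn1* and *Eln* from edgeR were 0.57 and 0.99. Both genes are known to answer to other pathways too. The part of TGF-β in the differences of *Ctgf*, *Tgfb1i1*, *Acta2* and *Col3a1* was not tested.

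**Figure D4:**
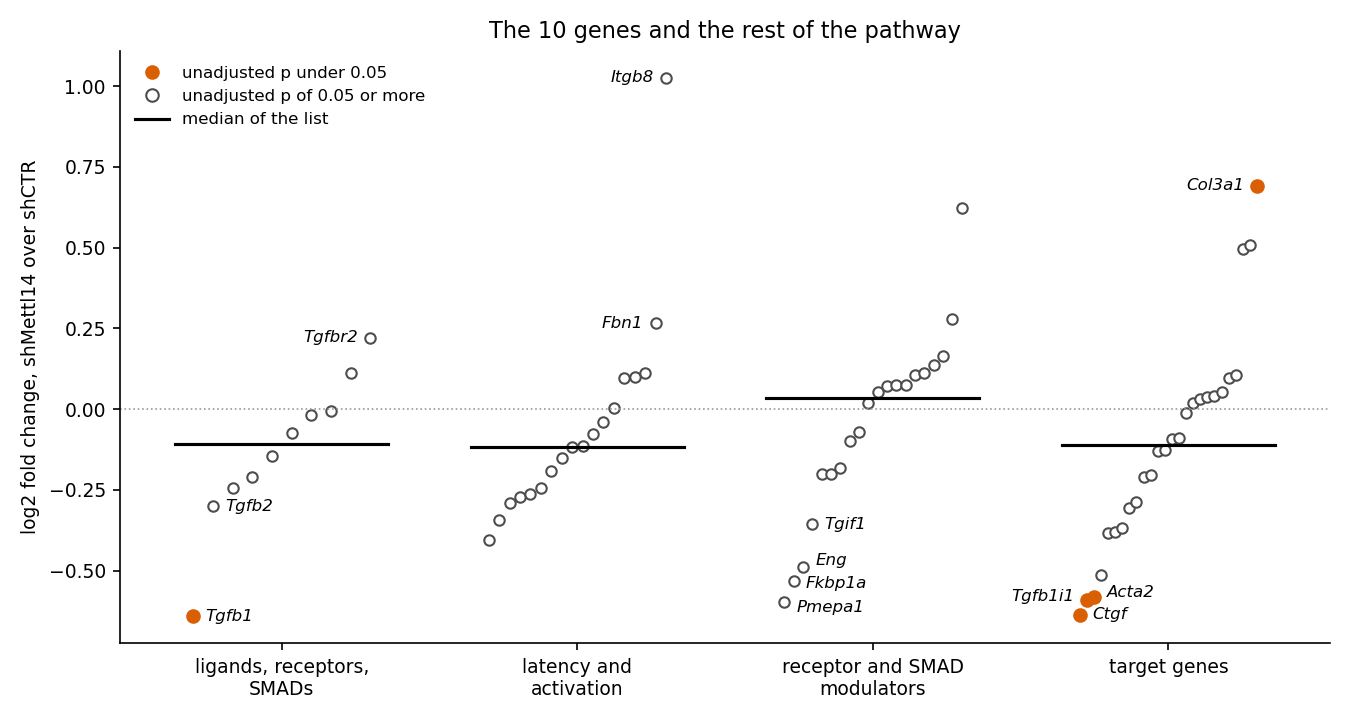
Log2 fold change of shMettl14 over shCTR from edgeR for the 10 genes and for the lists of 18 latency and activation genes, 20 receptor and SMAD modulators and 26 target genes, ordered by value within each list. Filled circles have an unadjusted p under 0.05 and horizontal bars are medians, and the lists spread to both sides of 0, with *Tgfb1*, *Ctgf*, *Tgfb1i1* and *Acta2* filled below it and *Col3a1* above it.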

How the data were processed

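Poly-A-enriched RNA of 4 libraries was sequenced from both ends with a stranded kit. The deposited values are counts per gene, without normalization, that the authors made with STAR on mm10 (GRCm38) and featureCounts. Counts were compared with edgeR 4.0.16 in R 4.3.3 (TMM factors, filterByExpr, robust quasi-likelihood fit, shMettl14 against shCTR without a block) with Benjamini-Hochberg adjustment at 0.05 over all genes tested. The authors name DESeq2 without a formula, and it served as an alternative (version 1.42.0). The SE of a log2 fold change is its size over the root of the F statistic. Ratios within a letter used log2 CPM with a prior count of 2. Values cover counting error and library spread only, and a count of 0 still allows 3 counts, which is 0.0231 to 0.0278 CPM here.

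Exon lengths, places and overlaps came from GENCODE M21. Other alternatives were RLE and upper-quartile factors, a replicate block, no filter, a minimum of 10 counts in each library, each library left out, a prior count of 0.5, library totals, and other lengths for shares and levels. The genes and lists were chosen with earlier results of these data known. Named genes were *Mettl14*, the 10 genes, and of each pathway list those with an unadjusted p under 0.05, the 3 with the largest change among genes with a mean of at least 10 CPM whose groups did not overlap, and the 2 most abundant, and of the marker lists the most abundant. *Itgb8*, *Smad6*, *Tie1* and *Vwf* were named after their values were seen, and 1 gene of the target list is not reported here.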

Additional observations from a re-analysis of the deposited data

How the results depend on the processing

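No setting gave any of the 10 genes an adjusted p under 0.05. Over all genes that count was 0, but 5 with DESeq2's Wald test, 9 with a replicate block and 0 to 1 with a library left out, where an arm of 1 library is assumed to vary like the other. Same-letter libraries deviated together from their group means (Pearson's r 0.786 across genes), and with a replicate block *Tgfb1* had an unadjusted p of 0.0018 and an adjusted p of 0.23 from edgeR. The count of the 10 genes with an unadjusted p under 0.05 was 1 in every fit that kept all 4 libraries, and it rested on both shMettl14 libraries. With a library left out, log2 fold changes ranged from −0.17 to 0.024 for *Tgfbr1*, −0.35 to 0.25 for *Tgfbr3*, −0.12 to 0.11 for *Smad4*, −0.32 to 0.74 for *Smad7*, −0.29 to 0.087 for *Thbs1*, −0.87 to 0.039 for *Eng*, −0.79 to 0.50 for *Fn1* and −1.39 to 1.76 for *Eln*, and so to both sides of 0. The others kept their sign, within −0.69 to −0.59 for *Tgfb1*, −0.42 to −0.18 for *Tgfb2*, −0.32 to −0.10 for *Tgfb3*, 0.038 to 0.40 for *Tgfbr2*, −0.23 to −0.052 for *Smad2* and −0.38 to −0.088 for *Smad3*. The value nearest 0 came without shMettl14 B for *Tgfb2* and *Smad2*, without shMettl14 A for *Tgfb3* and *Tgfbr2*, and without shCTR B for *Smad3*. *Smad4* also turned to 0.013 with upper-quartile factors, 0.0076 without the filter and 0.0046 with at least 10 counts in every library. Unadjusted counts for the latency list were 1 with DESeq2, 1 without the filter and 2 with the block. For the modulators they were 1 without the filter and 4 with the block, and for the targets 3 with DESeq2 and 9 with the block. Over all genes 1.52% passed with DESeq2 and 10.3% with the block. In the blocked edgeR fit the unadjusted p was 0.0029 for *Pmepa1*, 0.0098 for *Fkbp1a*, 0.044 for *Tgif1*, 0.029 for *Eng* and 0.00085 for *Itgb8* (0.025 with DESeq2). With a library left out, the median ranged from −0.20 to −0.048 for the 10 genes, −0.065 to 0.023 for the latency list, −0.069 to 0.017 for the modulators and −0.39 to −0.025 for the targets. In the main edgeR fit *Mettl14* itself had an unadjusted p of 0.00039 and did not pass after adjustment. Its adjusted p became 3.0e-07 with DESeq2 (log2 fold change −2.09) and 0.0039 with the block (−2.08). Without length, *Tgfb2* took 56.3% of the ligands (45.2% per kilobase) and *Tgfbr2* 69.1% of the receptors (64.1% per kilobase), or 78.9% with the principal coding transcript, a length added after seeing the data. Library totals in place of TMM moved the median of all genes to 0.08 within A and 0.16 within B. The causes of these differences were not tested.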
